A study of Mus musculus with 8 samples.

Results

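The cytosolic ribosomal protein genes encode the protein part of the 40S and 60S ribosomal subunits. They were taken by name: protein-coding genes whose symbols are Rpl or Rps followed by a number, with or without a short suffix, plus Rpsa, Rplp0, Rplp1 and Rplp2. The rule found 83 of the 55665 genes in the files, and kinases named Rps6k and mitochondrial ribosomal proteins were outside it. Of the 83, 81 had enough counts to be tested among 16642 genes. Rpl3l, a paralog of Rpl3 known from muscle, had at most 1 count in a library, and Rpl10l, a paralog of Rpl10 known from testis, had 0 counts in all 8 libraries.

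RNA was sequenced from mouse regulatory T cells (nTreg) that had been enriched as CD4 T cells from spleen and lymph nodes, sorted as CD4+GFP+ and cultured ex vivo. All 8 libraries came from the genotype RosaCas9/+ Foxp3gfp, which carries the Cas9 nuclease from the Rosa locus and a GFP reporter of Foxp3. The cells held either the guide RNA labelled sgNC, taken as the control guide, or a guide RNA against Foxp3 (sgFoxp3), the transcription factor that defines regulatory T cells. Each was mock-treated with DPBS (0 h) or restimulated for 3 h with antibodies to CD3 and CD28. CD3 belongs to the T cell receptor (TCR), and CD28 gives the costimulatory signal. The design gave 4 groups of 2 libraries. The labels do not give the age of the mice, how the guides were delivered or whether replicates came from separate cultures, so the p-values reflect only how far these libraries lie apart, and that spread may be technical.

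The libraries held 38729009 to 94807362 expected counts. Counts were scaled to library size times a factor from the trimmed mean of M-values (CPM). With the control guide this factor was 1.16 and 1.15 at 0 h and 0.927 and 0.931 at 3 h. With the Foxp3 guide it was 1.07 and 1.07, and 0.877 and 0.868. Foxp3 mRNA was at 764 and 776 CPM in the unstimulated control guide libraries and at 679 and 673 CPM after stimulation. The 4 Foxp3 guide libraries had 87.6, 88.5, 76.1 and 71.8 CPM, the level left in the whole cell population. Several marker sums moved with the guide, and some also with stimulation. The sum of 20 cell cycle genes was 1284 to 1326 CPM in the control guide libraries and 5400 to 5407 CPM in the Foxp3 guide libraries at 0 h, and at 3 h it was 577 to 584 and 1795 to 1804 CPM. The sum of 8 B cell markers was 947 to 948 CPM against 257 to 260 CPM at 0 h, with 4 of the 8 below 1 CPM in all libraries. At 3 h this sum was 97.5 to 99.8 CPM with the control guide and 33.5 to 34.4 CPM with the Foxp3 guide. The sum of 6 erythroid genes was 9.99 to 10.7 CPM against 75.2 to 76.6 CPM at 0 h. Of these 6 genes, 4 were below 1 CPM in all libraries. Sums of 7 myeloid, 4 NK and 2 CD8 markers were at most 4.37, 9.46 and 8.71 CPM in all libraries. At 0 h, 6 stromal markers summed to 202 to 212 CPM in the control guide libraries and 131 CPM in the Foxp3 guide libraries. In the 4 libraries at 3 h they summed to 30.2 to 42.1 CPM. Of these 6 markers, 5 were below 1 CPM in all libraries, so nearly all of the sum came from the remaining gene. The sum of 7 T cell markers, Foxp3 among them, was 3819 to 3886 CPM in the control guide libraries and 2114 to 2144 CPM in the Foxp3 guide libraries at 0 h, and 7031 to 7218 and 4326 to 4376 CPM at 3 h. What part these differences have in the results on the ribosomal protein genes was not tested.

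Ribosomal proteins are assembled with ribosomal RNA in the nucleolus, and most of them are needed in equal number in every ribosome. Their mRNAs are the best known TOP mRNAs: transcription starts at a C within a run of C and T, and the resulting 5′ terminal oligopyrimidine tract lets mTORC1 and the RNA-binding protein LARP1 control their translation. In T cells, TCR signals raise Myc and mTORC1 activity, and the synthesis of ribosomes goes up before the cells divide.

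The sequences around the transcription starts are shown because a run of C and T near the start is what most of these genes share. RefSeq promoter entries (GRCm38.p6) covered 63 of the 83 genes with 75 entries. A run of 8 or more letters that are each C or T on the coding strand lay within 50 bases either side of the annotated start in 77.3% of the 75 entries and in 35.7% of all 32851 entries. The same search on the opposite strand found 22.7% and 38.1%. Of the 63 genes, 52 had such a run in at least 1 entry. Over the whole 300 bases and on both strands, the ETS core CCGGAAG was in 36.0% of these entries against 8.86% of all, the YY1 core AAGATGG in 16.0% against 6.34%, the SP1 core GGGCGG in 60.0% against 35.7%, the E-box CACGTG in 10.7% against 7.15% and the TATA letters TATAAA in 9.33% against 13.6%. These letters are matches in the sequence and were not tested as binding sites.

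The windows of 30 bases below are from the coding strand, 5′ to 3′, with the longest run of C and T near the start in capitals. The first 5 belong to genes with large guide effects at 0 h, the next 3 to paralogs that rose with TCR stimulation, and the last 3 to genes lower after stimulation with the Foxp3 guide.
Rpl31, chr1:39367824-39367853, plus strand: ctcgccacaCCTCTTCCTCCTCgcctcccc
Rpl28, chr7:4792952-4792981, plus strand: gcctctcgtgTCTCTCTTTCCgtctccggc
Rps26, chr10:128626485-128626514, minus strand: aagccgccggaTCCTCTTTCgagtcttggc
Rpl35, chr2:39005115-39005144, minus strand: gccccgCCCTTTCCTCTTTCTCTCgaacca
Rpl10, chrX:74270836-74270865, plus strand: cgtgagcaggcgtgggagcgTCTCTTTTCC
Rpl7l1, chr17:46782671-46782700, minus strand: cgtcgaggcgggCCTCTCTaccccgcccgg
Rps27l, chr9:66946053-66946082, plus strand: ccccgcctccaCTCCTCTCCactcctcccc
Rpl22l1, chr3:28805499-28805528, plus strand: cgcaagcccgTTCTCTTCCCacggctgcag
Rpl39, chrX:37085173-37085202, minus strand: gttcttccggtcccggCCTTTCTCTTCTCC
Rpl13a, chr7:45128722-45128751, minus strand: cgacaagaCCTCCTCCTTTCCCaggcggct
Rps19, chr7:24884622-24884651, plus strand: accccgtcgTTCCCTTTCCCCTggctggca
The run is 18 bases in Rpl35, 14 in Rpl13a, at least 14 in Rpl39, where the searched window ends, and 7 in Rpl7l1, so Rpl7l1 is the only gene of these 11 without a run of 8. In these windows the run begins between 45 bases before the annotated start (Rps19) and 40 bases after it (Rpl10). A run shown here therefore need not be the tract at the 5′ end of the mRNA. Whether the runs relate to the changes in level was not tested.

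Ribosomal protein mRNAs took a large part of each transcriptome and a larger one with the Foxp3 guide. The 83 genes held 5.72% and 5.79% of all expected counts in the control guide libraries at 0 h and 8.01% and 7.82% in the Foxp3 guide libraries. At 3 h the shares were 5.77% and 6.15% with the control guide and 6.95% and 7.44% with the Foxp3 guide. On the TPM scale, which divides counts by transcript length, they held 18.5% and 18.6% of the total in the control guide libraries at 0 h against 22.4% and 22.0% with the Foxp3 guide, and 17.5% and 18.2% against 19.4% and 20.4% at 3 h. In both units and at both times, the Foxp3 guide libraries lay above the control guide libraries with no overlap. Bulk libraries cannot tell more RNA per cell from more cells of a kind that is rich in it.

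**Figure D1:**
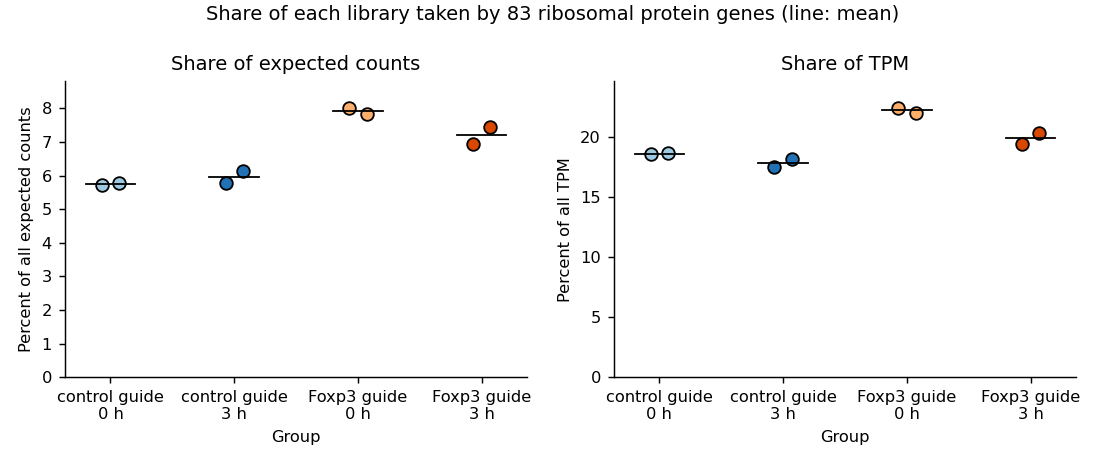
Share of all expected counts (left, percent) and of all TPM (right, percent) held by the 83 ribosomal protein genes, with a point per library and a line at the mean of each group of 2. The Foxp3 guide libraries at 0 h are highest in both units, at 7.82% and 8.01% of counts.

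Levels differed widely among the members. Per length, the highest mean over the 8 libraries was that of Rps27 with 6396 TPM, and Rplp1 with 5451, Rps29 with 5048 and Rps18 with 4745 TPM were also among the highest. The lowest levels above 0 were in paralogs: Rpl3l with 0.0075 TPM, Rpl39l with 1.53, Rpl7l1 with 102, Rpl22l1 with 356 and Rps27l with 416 TPM. Every other tested member had at least 957 TPM, the value of Rpl35, although each ribosome needs a single copy of most of these proteins. Apart from Rpl39l, with 13 to 57 counts per library, the tested members had 2125 to 260799 counts in a library, so counting error is small. Near-identical copies can share reads: 305 pseudogene rows named after these genes with the suffix -ps held 0.322% to 0.456% of counts per library. Pseudogenes with other names, such as Rpl37rt at 816 TPM and Rps3a2 at 348 TPM, are not in this share. Rps27rt, a protein-coding near copy of Rps27 outside the rule, stood at 660 TPM, and Rpl36al, a near copy of Rpl36a, at 742 TPM.

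With the Foxp3 guide and no restimulation, nearly all ribosomal protein mRNAs were higher. At an adjusted p below 0.05 (edgeR quasi-likelihood test, adjusted over all genes), 78 of 81 were called higher and 0 lower, where 34.2% of all genes tested were called higher and 29.1% lower. The median log2 change of CPM, scaled by the trimmed mean of M-values (TMM), was 0.55, against 0.02 over all genes tested, and the middle 50% of members lay between 0.46 and 0.66. All 81 members had groups that did not overlap, as had 80.8% of all genes tested. The increase was similar in both subunits, with a median of 0.53 over 49 large subunit and 0.56 over 32 small subunit genes.

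Rpl31, Rpl28, Rps26, Rpl35 and Rpl10 were among the members with the largest guide effects at 0 h. Rpl31, a large subunit protein beside the peptide exit tunnel, rose from 202 and 209 to 423 and 416 CPM (log2 change 1.03, SE 0.041, adjusted p = 1.1e-16). Rpl28 rose from 328 and 334 to 691 and 661 CPM (1.03, SE 0.048). In both genes the lowest Foxp3 guide library lay well above the highest control guide library.

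Rps26 contacts the mRNA as it leaves the small subunit and is among the genes mutated in Diamond-Blackfan anaemia, an inherited failure of red cell production. It was at 298 and 301 CPM with the control guide and at 603 and 579 CPM with the Foxp3 guide (log2 change 0.98, SE 0.047). Rpl35 went from 182 and 192 to 353 and 360 CPM (0.93, SE 0.046). Rpl10, which joins the large subunit late in its assembly, went from 534 and 539 to 1031 and 1016 CPM (0.93, SE 0.047). These 5 genes were also called higher on the log2(TPM + 1) scale, with changes of 0.63 to 0.78.

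At the other end, Rps14 was the called member with the smallest change, from 817 and 801 to 905 and 901 CPM (log2 change 0.16, SE 0.043, adjusted p = 0.0024). On the log2(TPM + 1) scale it was called lower, with a change of -0.14 (adjusted p = 0.0038). The 3 members not called were Rpl7l1 (0.07, adjusted p = 0.12), Rpl39l (0.22, adjusted p = 0.61) and Rps21 (0.50, adjusted p = 0.051). Rps21 was at 227 and 246 CPM with the control guide and at 360 and 310 CPM with the Foxp3 guide. Its SE was 0.159, beside a median SE of 0.047 over members, and its Foxp3 guide libraries lay far apart at both times, with 260 and 337 CPM at 3 h.

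At 3 h the guide effect had the same sign in nearly all members and was smaller. Again 78 of 81 members were called higher and 0 lower, against 30.7% and 30.8% of all genes tested. The median log2 change was 0.34, against -0.01 over all genes. Groups did not overlap for 78 of the 81, against 79.0% of all genes. The members not called were Rpl39l (-0.18, adjusted p = 0.56), Rpl36 (0.06, adjusted p = 0.61) and Rps21 (0.16, adjusted p = 0.46).

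Rps4x, the X-linked small subunit gene, had the largest guide effect at 3 h. It was at 1200 and 1217 CPM with the control guide and at 1750 and 1893 CPM with the Foxp3 guide (log2 change 0.59, SE 0.044, adjusted p = 2e-11). Rpsa, known also as the laminin receptor, was at 1988 and 2099 against 2915 and 3171 CPM (0.57, SE 0.046). Rps29, a very short zinc-binding protein, was at 565 and 644 against 876 and 924 CPM (0.57, SE 0.053). In these 3 genes the Foxp3 guide libraries all lay above the control guide libraries. Rps26, Rpl10 and Rpl28 followed with 0.57, 0.57 and 0.56.

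Across the 81 members, the guide effects at 0 h and 3 h, which share no library, ranked alike (Pearson r = 0.77, Spearman rho = 0.78, over genes, which are not independent replicates and share their library scaling). In 79 of the 81 the effect was smaller at 3 h. The plot of guide effects gene by gene shows both series.

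**Figure D2:**
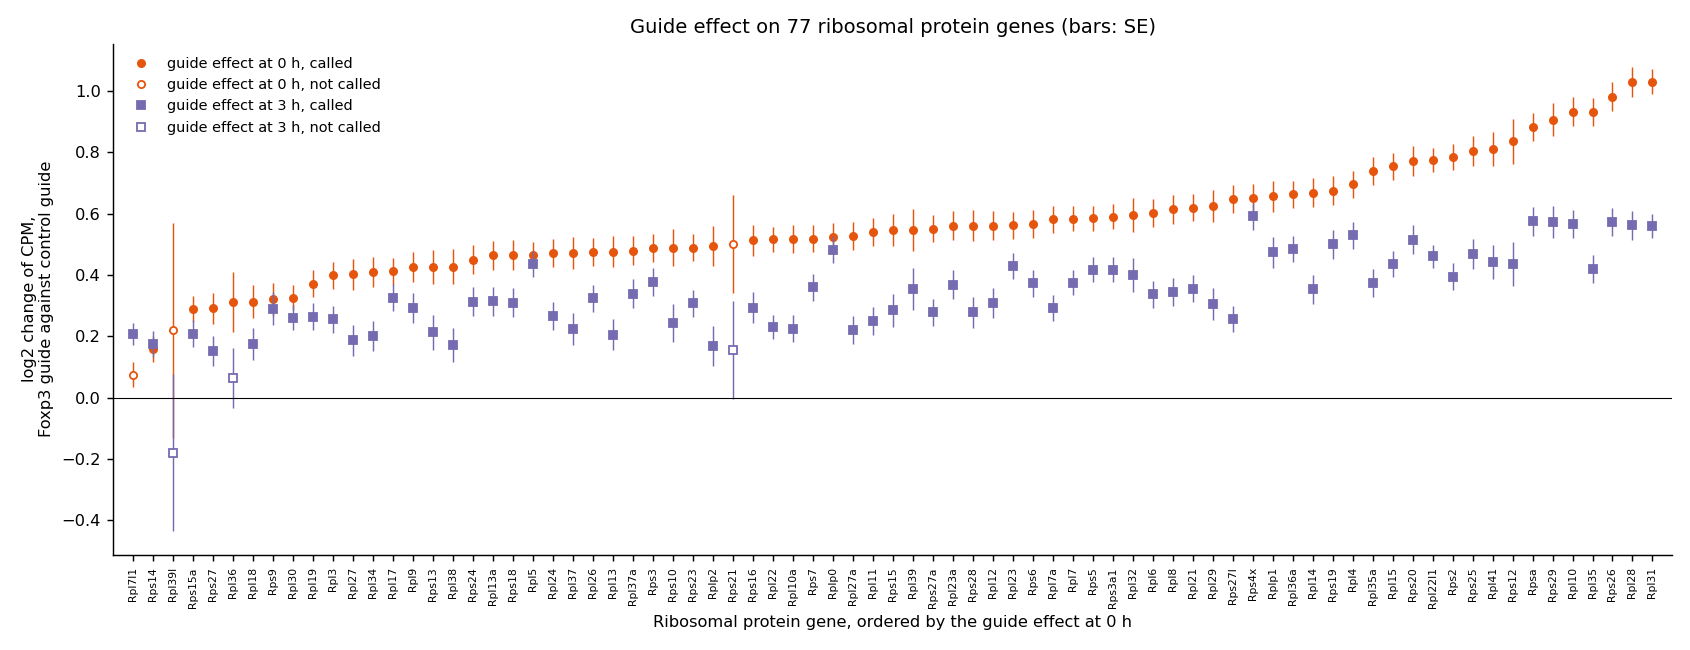
Log2 change of CPM with the Foxp3 guide against the control guide for 77 of the tested genes, at 0 h (circles) and 3 h (squares), with SE bars; open symbols were not called. The effect at 0 h runs from 0.07 in Rpl7l1 to 1.03 in Rpl31, and nearly all genes have a smaller effect at 3 h.

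Groups of members fixed by function were called higher with the Foxp3 guide, by amounts that differed within groups. Of all genes, 34.2% were called higher at 0 h and 30.7% at 3 h. The P stalk, which recruits elongation factors to the ribosome and consists of Rplp0, Rplp1 and Rplp2 on Rpl12, had 4 of 4 genes called higher at 0 h (0.52, 0.66, 0.49 and 0.56) and at 3 h (0.48, 0.47, 0.17 and 0.31). Rpl5 and Rpl11, which carry the 5S ribosomal RNA and bind Mdm2 when ribosome assembly fails, were called higher at both times, at 0.47 and 0.54 at 0 h and 0.44 and 0.25 at 3 h. All 9 Diamond-Blackfan genes tested were called higher at both times, with medians of 0.54 and 0.37. The 4 X-linked genes, Rpl10, Rpl36a, Rpl39 and Rps4x, were called higher at both times, with medians of 0.66 and 0.53. Rps27a and Fau, made as fusions with ubiquitin or a relative of it, the scaffold protein Rack1 and Rpl36al, of which only Rps27a is a member, were called higher at both times. With 78 of 81 members called higher, these counts differ little from that of all members. On log2(TPM + 1), all genes of the P stalk, the 5S pair, the Diamond-Blackfan and the X-linked group were called higher at 0 h (17.5% of all genes). At 3 h it was 2 of 4, 1 of 2, 7 of 9 and 4 of 4 (14.8% of all genes).

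Most members are short genes, and in these libraries the median guide effect of other short genes was above 0. Effective length was taken from the ratio of deposited count to TPM. Of the 81 members, 51 were in the shortest decile of genes tested, 23 in the next, 6 in the one after and 1, Rpl7l1, near the middle. The median guide effect of the other genes fell from 0.35 in the shortest decile to -0.18 in the longest at 0 h, and from 0.14 to -0.07 at 3 h. In the shortest decile, 41.6% of the other genes were called higher and 7.5% lower at 0 h, and 31.8% and 12% at 3 h, where over all genes it was 34.2% and 29.1%, and 30.7% and 30.8%. Of the 81 members, 72 lay above the 0.35 of the other shortest genes at 0 h and 79 above the 0.14 at 3 h. Among 18 other genes of that decile with high counts (log2 CPM averaging 8 or more), which include Tmsb4x, Ppia and some ribosomal protein pseudogenes, the median guide effects were 0.54 and 0.45, beside 0.51 and 0.30 for the 51 members in that decile. How far length as such carries the guide effect on the members was not tested.

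**Figure D3:**
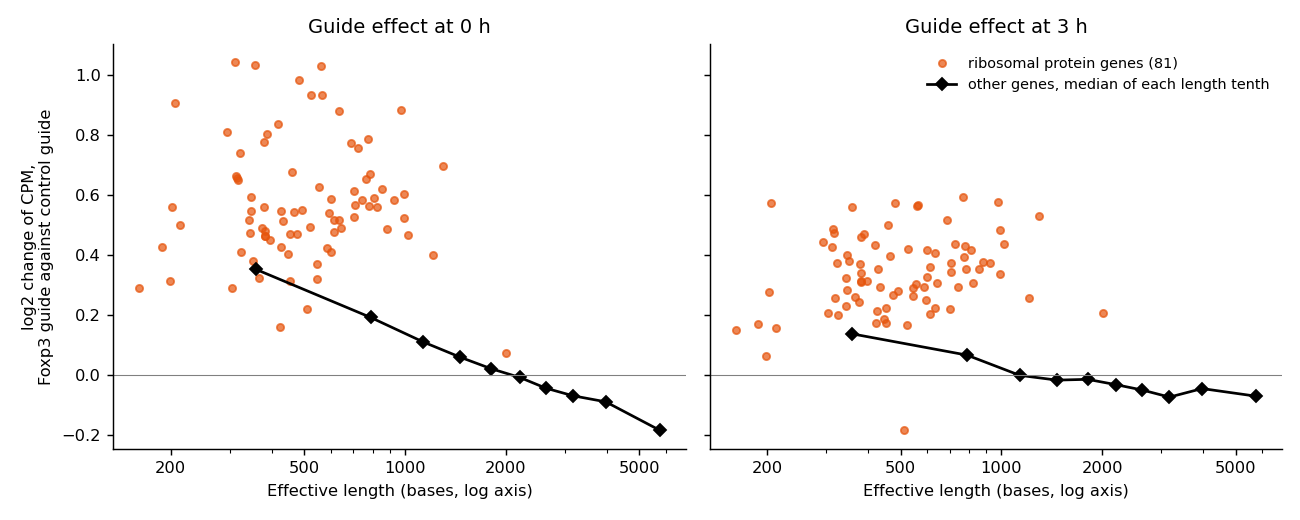
Guide effect (log2 change of CPM) against effective length in bases on a log axis at 0 h (left) and 3 h (right) for the 81 genes (circles), with the median of the other genes in each decile of length (diamonds). The line of medians falls from 0.35 to -0.18 at 0 h, and 72 of the 81 genes lie above 0.35.

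On log2(TPM + 1) and with a scaling by length, the median guide effect on the members was smaller and kept its direction. The TPM values were used as deposited, without TMM factors, so this scale differs from TMM-scaled CPM in more than length. How much of the change between these scales comes from length was not tested. Some single members did not keep it. The changes of Rps14, Rps27 and Rps15a at 0 h were -0.14, -0.06 and -0.05 on log2(TPM + 1), of which that of Rps14 was called. They were -0.18, -0.21 and -0.11 with the scaling by length described next, all called lower. Rpl36 was also below 0 on both scales, at -0.03 and -0.16. A few others, such as Rpl7l1 (-0.08 on log2(TPM + 1)) and Rpl38 (-0.05 with the scaling by length), were below 0 on 1 of them. Neither Rpl36 nor these others were called. On log2(TPM + 1), tested with limma, 68 members were called higher and 1 lower at 0 h, against 17.5% and 45.2% of all genes, with a median of 0.25 beside -0.15 over all genes. At 3 h 51 were called higher and 0 lower, against 14.8% and 39.3%, with a median of 0.15 beside -0.12. With a count scaling that removes the trend with length seen in all other genes, chosen after the data were seen, 65 were called higher and 3 lower at 0 h (median 0.26; 29.7% and 33.5% of all genes) and 63 and 0 at 3 h (median 0.21; 33.2% and 29.7%). Called higher on all 3 scales were 65 members at 0 h, against 16.5% of all genes, and 49 at 3 h, against 14.4%. At both times and on all 3 scales it was 47 members, against 7.91% of all genes. No member was called lower on all 3 scales at 0 h or at 3 h, against 26.4% and 26.0% of all genes. In a test against a 1.2-fold change on TMM-scaled CPM, 71 members were higher and 0 lower at 0 h (21.8% and 16.8% of all genes), and 40 and 0 at 3 h (16.5% and 19.7%).

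TCR stimulation of control guide cells changed the members in different degrees, and the direction of most of them depended on the scale. On TMM-scaled CPM, 72 of 81 were called higher and 0 lower at 3 h, where 40.9% of all genes were called higher and 40.9% lower. The median log2 change was 0.40, against -0.01 over all genes. Groups did not overlap for 74 members, against 89.7% of all genes. On log2(TPM + 1), 29 members were called higher and 27 lower (29.8% and 50.1% of all genes), with a median of -0.017, beside -0.20 over all genes. With the scaling by length the counts were 32 and 30 (38.7% and 43.4% of all genes), with a median of -0.023. The other genes of the shortest decile had a median of 0.31 on TMM-scaled CPM, and 50 of 81 members lay above it.

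Called higher by stimulation on all 3 scales were 28 members, against 29.1% of all genes, and 0 were called lower, against 39.3%. Beyond a 1.2-fold change on TMM-scaled CPM, 49 were higher and 0 lower (35.5% and 36.5% of all genes). Beside the paralogs, described further on, Rpl35 and Rpl10a had large changes. Rpl35 rose from 182 and 192 to 349 and 380 CPM (log2 change 0.96, SE 0.046, adjusted p = 1.7e-15), and by 0.77 on the TPM scale. Rpl10a, a large subunit protein at the L1 stalk, rose from 463 and 484 to 837 and 923 CPM (0.90, SE 0.046), and by 0.28 on the TPM scale. No library at 0 h reached a library at 3 h in these genes.

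At the low end stood Rps9, Rpl39, Rpl13a, Rpl17, Rps19 and Rps27, among others, with changes of 0.01 to 0.09 on TMM-scaled CPM, none of them called. Rps27 was called higher without control guide 3 h replicate 1 (0.14, adjusted p = 0.019), without Foxp3 guide 3 h replicate 1 (0.10, adjusted p = 0.037) and with the crossed replicate block (0.09, adjusted p = 0.042). Rpl13a, for example, was at 960 and 990 CPM at 0 h and at 962 and 1024 CPM at 3 h. On the TPM scale these 6 were called lower, by 0.34 in Rpl13a to 0.39 in Rps9. Rps19 fell from 3317 and 3314 TPM to 2432 and 2641 TPM. Whether these 6 stayed level or fell relative to the rest of the mRNA therefore depends on the scale, while their place below Rpl35 does not.

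On TMM-scaled CPM, most members had a lower TCR effect with the Foxp3 guide. On that scale, 53 of 81 were called higher and 4 lower, where 40.8% of all genes were called higher and 44.5% lower. The median was 0.15, against -0.07 over all genes. Groups did not overlap for 62 members, against 92.3% of all genes. On log2(TPM + 1), 8 were called higher and 49 lower (31.1% and 49.2% of all genes), with a median of -0.15 beside -0.18 over all genes, and with the scaling by length 23 and 32 (40.9% and 44.8%), with a median of -0.048. Beyond a 1.2-fold change on TMM-scaled CPM, 14 were higher and 0 lower (35.4% and 39.9% of all genes). Called higher on all 3 scales were 8 members, against 30.9% of all genes, among them Rpl7l1, Rpl39l, Rps27l, Rpl22l1, Rpl10a, Rps2 and Rps27a.

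Among these, Rpl10a rose from 682 and 673 CPM to 1021 and 1037 CPM (log2 change 0.60, SE 0.045, adjusted p = 6.1e-12). Rpl35 rose from 353 and 360 to 471 and 503 CPM (0.45, SE 0.045), and on the TPM scale its 0.21 was not called (adjusted p = 0.069). Rps2, a small subunit protein near the mRNA entry, had a change of 0.42 and Rps27a, made as a fusion with ubiquitin, of 0.39.

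Called lower on all 3 scales were 4 members, against 41.7% of all genes, among them Rpl39, Rpl13a and Rps19. Rpl39 went from 594 and 580 CPM to 477 and 566 CPM (log2 change -0.17, SE 0.067, adjusted p = 0.034). Rpl13a went from 1385 and 1307 to 1186 and 1283 CPM (-0.12, adjusted p = 0.017). Rps19, the gene most often mutated in Diamond-Blackfan anaemia, went from 1303 and 1251 to 1127 and 1216 CPM (-0.12, adjusted p = 0.019). In each of them the second Foxp3 guide library at 3 h was close to the 0 h libraries. Leaving out the first Foxp3 guide library at 3 h gave -0.05 for Rpl39, -0.06 for Rpl13a and -0.07 for Rps19, none of them called. None of the 3 was called with median-ratio scaling, with DESeq2 or in a fit of only the 4 Foxp3 guide libraries either. The call in Rpl39 also ended without any 1 of the control guide libraries at 3 h or the Foxp3 guide libraries at 0 h, and those in Rpl13a and Rps19 without the first Foxp3 guide library at 0 h.

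**Figure D4:**
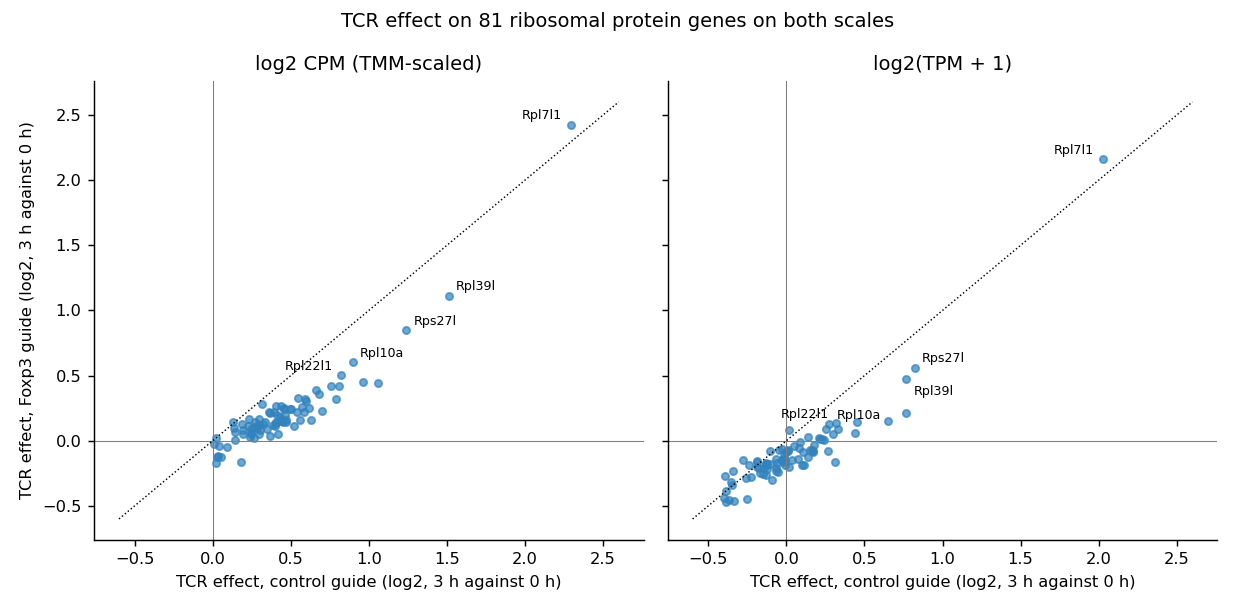
TCR effect (log2, 3 h against 0 h) with the Foxp3 guide against that with the control guide for the 81 genes, on TMM-scaled CPM (left) and log2(TPM + 1) (right); the dotted line marks equal effects. On the left 79 of 81 points lie below that line, and on the right, where 27 genes are called lower under control and 49 under Foxp3 guide RNA, Rpl7l1, Rpl39l and Rps27l remain well above 0.

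The difference between the TCR effects, which is also the guide effect at 3 h minus that at 0 h, was tested directly. On TMM-scaled CPM, 53 of 81 members had a lower TCR effect with the Foxp3 guide and 0 a higher one, where 27.0% of all genes were called lower and 17.8% higher. The median difference was -0.22, beside -0.09 over all genes and -0.22 over the other genes of the shortest decile. The members shifted together between replicates, and the replicate SD of their median log2 CPM was 0.075. The calls are therefore not independent of each other, here or in the other comparisons. Whether the median difference exceeds this shared spread was not tested. On log2(TPM + 1), 30 were called lower and 0 higher (17.2% and 18.3% of all genes), with a median of -0.12 beside 0.01 over all genes. With the scaling by length, 22 were called lower and 8 higher (21.3% and 24.1%), with a median of -0.036. Beyond a 1.2-fold change on TMM-scaled CPM, 8 were lower and 0 higher (14.9% and 8.91% of all genes). Called lower on all 3 scales were 20 members and higher 0, against 13.4% and 14.1% of all genes.

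Among the largest differences were those of Rpl35 (-0.51, SE 0.064, adjusted p = 5.7e-07), Rpl31 (-0.47, SE 0.058), Rpl28 (-0.47, SE 0.068) and Rps26 (-0.41, SE 0.066). In CPM, the Foxp3 guide libraries at 0 h were already above the control guide libraries at 0 h in these 4 genes, and the highest levels were in the Foxp3 guide libraries at 3 h. In TPM, the highest levels of Rpl31, Rpl28 and Rps26 were in the Foxp3 guide libraries at 0 h. For Rpl35, the Foxp3 guide level at 0 h (353 and 360 CPM) lay within that of the control guide at 3 h (349 and 380 CPM). Rpl28 was at 493 and 530 CPM in the control guide libraries at 3 h, below the 691 and 661 CPM of the unstimulated Foxp3 guide libraries. All 4 were called lower on the other 2 scales as well.

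Across the 81 members the TCR effects under the 2 guides, which share no library, had a Pearson r of 0.93, or 0.87 over the 77 genes without the 4 tested paralogs. As correlations over genes, these describe the members and are not a test. The order of the members was alike with both guides, while 79 of 81 had the smaller effect with the Foxp3 guide on TMM-scaled CPM.

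Paralogs in this set are genes for a second form of a ribosomal protein, and all 4 that were tested, Rpl7l1, Rps27l, Rpl39l and Rpl22l1, were called higher by TCR stimulation with both guides and on all 3 scales. Their parent genes Rpl7, Rps27, Rpl39 and Rpl22 changed by 0.45, 0.09, 0.02 and 0.40 with the control guide on TMM-scaled CPM, and on log2(TPM + 1) by 0.08, -0.36, -0.37 and -0.01.

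Rpl7l1, whose product is related to Rpl7 and is known from large subunit precursors, had the largest TCR effect of all members. It rose from 47.5 and 46.8 CPM to 229 and 233 CPM with the control guide (log2 change 2.29, SE 0.040, adjusted p = 7.4e-25). Under the Foxp3 guide it rose from 49.6 and 49.7 to 261 and 271 CPM (2.42, SE 0.038, adjusted p = 7.2e-26). The guide effect was 0.07 at 0 h, not called, and 0.21 at 3 h, called on TMM-scaled CPM and not on the TPM scale (adjusted p = 0.52). The difference of its TCR effects was 0.13 (adjusted p = 0.051), and with the scaling by length 0.23 (adjusted p = 0.00013). It was called higher at 0.19 with DESeq2 (adjusted p = 0.0079), with RLE scaling (adjusted p = 0.0056) and with upper-quartile scaling (adjusted p = 0.0045). With a filter of at least 1 CPM in all libraries it was 0.14 (adjusted p = 0.032), and without Foxp3 guide 3 h replicate 1 or replicate 2 it was 0.16 and 0.17 (adjusted p = 0.0496 and 0.038). The other alternatives, log2(TPM + 1) among them (adjusted p = 0.29), did not call it. Rpl7l1 and Rps14 (0.02, adjusted p = 0.87) were the 2 members with a difference above 0 on TMM-scaled CPM.

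Per length, Rpl7l1 made up 2.20% and 1.97% of the Rpl7 level in the control guide libraries at 0 h, and 7.92% and 8.41% after 3 h. Under the Foxp3 guide it went from 1.53% and 1.65% to 7.78% and 7.31%. Its share of the parent level was thus higher in all 4 libraries at 3 h than in any at 0 h, and the parent remained far more abundant.

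Rps27l, a paralog of Rps27 known as a p53 target, rose from 49.4 and 46.4 CPM to 109 and 117 CPM with the control guide (log2 change 1.24, SE 0.047). Under the Foxp3 guide it rose from 74.1 and 76.0 to 130 and 140 CPM (0.85, SE 0.043). It was 3.92% and 3.83% of Rps27 per length at 0 h and 8.76% and 8.79% at 3 h with the control guide, and 5.02% and 5.16% against 9.61% and 9.14% with the Foxp3 guide. The 4 libraries at 3 h were all above the 4 at 0 h, and the Foxp3 guide libraries were above the control guide libraries at each time.

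Rpl22l1, whose expression is known to be held down by Rpl22, rose from 54.3 and 54.9 to 93.8 and 98.8 CPM with the control guide (log2 change 0.82, SE 0.041). Foxp3 guide libraries rose from 93.8 and 93.0 to 130 and 135 CPM (0.50, SE 0.038). Its level relative to Rpl22 was 21.6% and 22.0% at 0 h and 27.4% and 27.1% at 3 h with the control guide, and 24.6% and 24.4% against 29.9% and 29.8% with the Foxp3 guide. It was the only tested paralog whose guide effect, 0.78 (SE 0.040) at 0 h and 0.46 (SE 0.039) at 3 h, was called at both times on all 3 scales.

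Rpl39l, a paralog of Rpl39 known from testis, was near the limit of detection, with 0.290 and 0.285 CPM at 0 h and 0.710 and 0.944 CPM at 3 h with the control guide. With the Foxp3 guide it was at 0.308 and 0.364 CPM and then 0.775 and 0.693 CPM. The log2 changes of 1.51 (SE 0.321, adjusted p = 0.00015) and 1.11 (SE 0.275, adjusted p = 0.00068) rest on 13 to 57 counts per library, and its level was at most 0.201% of that of Rpl39.

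**Figure D5:**
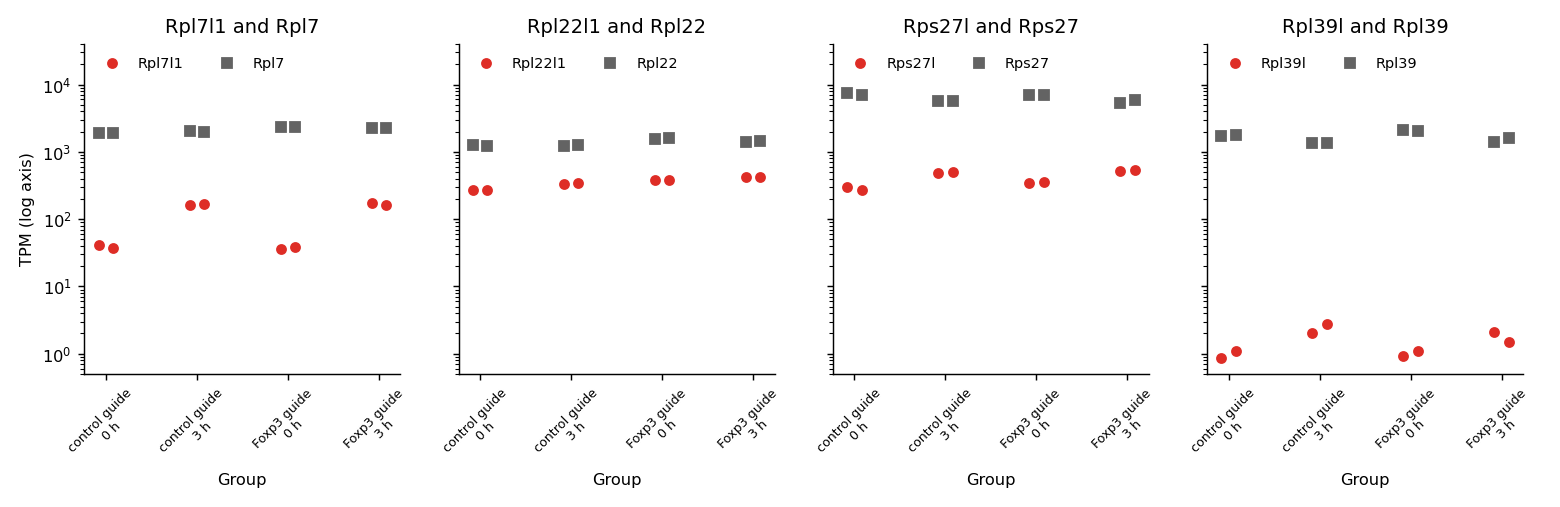
TPM on a log axis in each of the 8 libraries for 4 paralogs (circles) and their parent genes (squares). Rpl7l1 rises from 35.5 to 41.3 TPM at 0 h to 160 to 174 TPM at 3 h, while Rpl7 stays between 1882 and 2339 TPM.

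Other genes of the translation machinery had larger changes with TCR stimulation than most ribosomal proteins, a difference that was not tested. On TMM-scaled CPM, the shares of all genes called higher and lower were 34.2% and 29.1% for the guide at 0 h, 30.7% and 30.8% at 3 h, 40.9% and 40.9% for stimulation under the control guide, and 40.8% and 44.5% under the Foxp3 guide. They were 17.5% and 45.2% for the guide at 0 h and 14.8% and 39.3% at 3 h on log2(TPM + 1). All 24 genes listed for ribosome biogenesis and RNA polymerase I, which makes and processes ribosomal RNA, were called higher by stimulation under either guide, with medians of 3.19 (control guide) and 3.59 (Foxp3 guide). With the control guide, Gnl3, a nucleolar GTPase, rose by 4.60, Rrp12 by 4.56 and Polr1b, the second largest subunit of RNA polymerase I, by 4.35. Unlike the ribosomal proteins, these genes were mostly lower with the Foxp3 guide at 0 h, 5 being called higher and 16 lower (median -0.22). At 3 h 18 were called higher and 1 lower (median 0.15). The direction of the TCR effect on their median held on log2(TPM + 1), at 2.77 and 3.13, and so did that of the guide effect at 0 h, at -0.48, while the guide effect at 3 h did not, at -0.04.

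Of 36 initiation factors, 34 were called higher and 1 lower by stimulation with each guide (medians 1.36 and 1.41), led by Eif2b3, Eif4e and Eif1a with 3.34, 2.96 and 2.90 with the control guide. Their guide effects were 19 higher and 9 lower at 0 h (median 0.16) and 31 higher and 1 lower at 3 h (median 0.18), and these medians were -0.16 and -0.01 on log2(TPM + 1). Of 8 elongation factors and relatives, 6 were called higher and 0 lower with the Foxp3 guide at 0 h, among them Eef1a1 (0.57), Eef1b2 (0.54) and Eef1g (0.53), which are themselves encoded by TOP mRNAs. Of the 8, 3 were called higher and 3 lower at 0 h on log2(TPM + 1) (median 0.06). With stimulation 7 were called higher and 1 lower with the control guide, led by Eef1e1 (4.42) and Eif5a (2.08).

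Of 10 other TOP mRNAs listed, 10 were called higher at 0 h (median 0.45), led by Nap1l1 (1.16), Ybx1 (1.03) and Npm1 (0.79), and 9 were called higher and 1 lower at 3 h (median 0.32). Of 8 snoRNA host RNAs that also begin with such a tract but are not translated into protein, 1 was called higher and 4 lower at 0 h (median -0.12), and 5 higher and 0 lower at 3 h (median 0.17). The medians at 0 h were 0.20 and -0.41 on log2(TPM + 1), with 7 and 0 of the mRNAs and 1 and 5 of the host RNAs called higher and lower. At 3 h they were 0.13 and -0.06 on this scale, with 6 and 2 of the mRNAs and 0 and 3 of the host RNAs called. TCR stimulation raised 9 of the 10 mRNAs and 7 of the 8 host RNAs with the control guide.

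Mitochondrial ribosomal proteins build a separate ribosome. Of 78 tested, 58 were called higher and 4 lower with the Foxp3 guide at 0 h (median 0.27), and 40 and 8 at 3 h (median 0.11). On log2(TPM + 1) the medians were 0.01 and -0.08, where those of the cytosolic set were 0.25 and 0.15. Stimulation raised 68 and lowered 5 with the control guide (median 0.92), and 64 and 9 with the Foxp3 guide (median 0.63), and on log2(TPM + 1) these medians were 0.45 and 0.36, where those of the cytosolic set were -0.02 and -0.15. The difference between the 2 sets was not tested.

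Among 14 genes that control translation and ribosome production, Myc, the transcription factor that drives ribosome biogenesis, stood at 44.8 and 45.4 CPM with the control guide and 8.85 and 8.41 CPM with the Foxp3 guide before stimulation, a change of -2.39 (SE 0.054). At 3 h it was at 1192 and 1232 CPM and 1104 and 1103 CPM. The ribosomal protein mRNAs were thus higher in the 0 h libraries in which Myc mRNA was lower. Larp1, which binds TOP mRNAs, changed by -0.83 (SE 0.042) with the guide at 0 h and by 2.49 (SE 0.043) with stimulation under the control guide. Eef2k, the kinase that inhibits elongation factor 2, changed by -1.57 (SE 0.063) with the guide at 0 h. Of the 14, 4 were called higher and 7 lower with the Foxp3 guide at 0 h, and 0 and 10 on log2(TPM + 1).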

How the data were processed

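RNA-seq libraries of mouse regulatory T cells were made with a stranded protocol, per the labels' protocols. The submitters' processing notes name Trim Galore 0.6.3, STAR 2.7.9a, RSEM 1.3.1 and the build GRCm38 (mm10); the annotation release is not given in the sources used here. The authors deposited expected count and TPM values per gene for all 8 libraries.

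Expected counts were rounded and tested with edgeR 4.0.16 (filterByExpr, TMM, robust quasi-likelihood fit over all 8 libraries with a mean per group, Benjamini-Hochberg adjustment over the 16642 genes that passed the filter). The threshold was an adjusted p of 0.05. Each guide effect and TCR effect compared 2 libraries with 2, and the difference between the TCR effects used all 8. The fit had 4 residual degrees of freedom and a biological coefficient of variation of 3.41%. Log2(TPM + 1) was tested with limma 3.58.1 on the deposited TPM, without TMM factors or other scaling between libraries. Alternatives were other scalings, filters and pseudocounts, DESeq2 1.42.0, a 1.2-fold threshold, a replicate block, each library left out, and, chosen after seeing the data, a scaling by effective length (loess on the other genes, lengths calibrated on 50 single-transcript genes over 5000 bases). The script was tested on simulated data.

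Genes were named by a rule: the 6 largest called changes in each direction without overlap between groups, the 5 highest and 5 lowest members by TPM, and the members of the lists by function; results on some of the genes so chosen are not reported here. Rps14, Rps2, Rps9, Rpl17, Rpl36, Rps21 and some list genes (such as Eef1b2, Eif5a, Larp1) were named after their values were seen. The members and lists were chosen with earlier results of these data known. Gene IDs of all 83 members were found in GENCODE M21, and 55094 of 55665 over all genes with their version. Promoter sequences are from RefSeq, GRCm38.p6.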

Additional observations from a re-analysis of the deposited data

Results flagged for a closer look

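On TMM-scaled CPM, the guide effect differed between the time points in 53 of the 81 tested ribosomal protein genes. The test was that of the difference itself (edgeR quasi-likelihood, adjusted over all genes), and it called 27.0% of all genes lower and 17.8% higher. In all 53 the effect at 3 h was smaller than that at 0 h. On log2(TPM + 1), 30 were lower and 0 higher (17.2% and 18.3% of all genes). With the scaling by length it was 22 and 8 (21.3% and 24.1%), and beyond a 1.2-fold change 8 and 0 (14.9% and 8.91%). On TMM-scaled CPM the median difference was -0.22, as it was over the other genes of the shortest decile. The genes shifted together between replicates (replicate SD of their median log2 CPM 0.075), so the 53 calls are not independent. Whether the median difference exceeds this shared spread was not tested. The difference of log2 changes (3 h minus 0 h) was -0.51 in Rpl35, -0.47 in Rpl31, -0.47 in Rpl28, -0.41 in Rps26, -0.39 in Rps27l, -0.31 in Rpl22l1, -0.29 in Rpl22 and -0.21 in Rpl7. With the scaling by effective length, the differences in Rpl22 (-0.09, adjusted p = 0.11) and Rpl7 (-0.04, adjusted p = 0.48) no longer passed the threshold. The same difference of 53 calls is that between the TCR effects of the 2 guides.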

How the results depend on the processing

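The direction of the guide effect on the median ribosomal protein gene held in all alternatives, and its size depended on the scale. At 0 h the median was 0.46 with upper-quartile scaling, 0.25 on log2(TPM + 1) and log2(TPM + 0.1) and 0.26 with the scaling by length. At 3 h it was 0.15 on both TPM scales and 0.21 with the scaling by length. The log2 ratio of the members' share between guides was 0.26 at 0 h and 0.16 at 3 h in TPM. Calls at 3 h fell to 51 on both TPM scales and to 40 against a 1.2-fold change. The median TCR effect with the control guide was 0.16 with upper-quartile scaling, 0.31 with at least 1 CPM in all libraries, and reversed to -0.017 on both TPM scales and -0.023 with the scaling by length. With the Foxp3 guide it was 0.059 with at least 1 CPM in all libraries and reversed to -0.028 with upper-quartile scaling, -0.15 on both TPM scales and -0.048 with the scaling by length. Calls there were 33 (17 higher, 16 lower) with upper-quartile scaling, 37 (31 and 6) with at least 1 CPM in all libraries, 14 against a 1.2-fold change, 57 (8 and 49) on both TPM scales and 55 (23 and 32) with the scaling by length. The difference between the TCR effects had 30 calls on both TPM scales, 30 (22 lower, 8 higher) with the scaling by length and 8 against a 1.2-fold change, and a median of -0.036 with the scaling by length. For the TCR effect with the Foxp3 guide, the main fit called 40.8% of all genes higher and 44.5% lower. Of all genes called there, 42.1% were higher with upper-quartile scaling and 48.2% with at least 1 CPM in all libraries. The cause of these shifts was not tested.

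Over all genes, log2(TPM + 1) moved the median guide effect at 0 h from 0.02 to -0.15 and the share of calls that were higher from 54.0% to 27.9%; at 3 h that share went from 49.9% to 27.4%, and with TCR stimulation under the control guide from 49.99% to 37.3%. For the difference it was 39.7% and became 51.5% on log2(TPM + 1), 50.2% with DESeq2 and 53.0% with the scaling by length. Upper-quartile scaling moved the all-gene median of the TCR effect to -0.25 (control guide) and -0.24 (Foxp3 guide). Relative to the median of all genes on log2(TPM + 1), the members stood at 0.40, 0.27, 0.18, 0.03 and -0.13 in the 5 comparisons.

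Among the genes followed one by one through the alternatives, these reversed. Rps27 had guide effects of -0.060 at 0 h and -0.023 at 3 h on both TPM scales and of -0.21 and -0.075 with the scaling by length. Its TCR effect with the control guide was -0.14 with upper-quartile scaling, -0.36 on both TPM scales and -0.49 with the scaling by length, and the difference was 0.14 with the scaling by length. Rpl39 had a TCR effect with the control guide of -0.21 with upper-quartile scaling, -0.37 on both TPM scales and -0.41 with the scaling by length. Rpl22 had one of -0.0065 on both TPM scales and -0.071 with the scaling by length, and with the Foxp3 guide of -0.059 with upper-quartile scaling, -0.15 on both TPM scales and -0.16 with the scaling by length. Rpl7 had one of -0.055 with the Foxp3 guide on both TPM scales.

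Leaving out each library in turn gave 77 to 79 calls (median 0.52 to 0.57) for the guide at 0 h, 74 to 79 (0.29 to 0.39) at 3 h, 69 to 74 (0.35 to 0.44) for TCR with the control guide, 38 to 65 (0.11 to 0.21) with the Foxp3 guide and 36 to 64 (-0.29 to -0.15) for the difference. The log2 ratio of shares between guides was 0.44 to 0.48 at 0 h and 0.22 to 0.32 at 3 h. Same-numbered replicates deviated together between the 3 h groups (r = 0.29 over 9241 genes) and not in the other 5 pairs of groups (r from -0.23 to -0.054), so the numbers are not taken as pairs. With the replicate block the calls were 78, 78, 72, 59 and 55. With crossed numbers, a setting chosen after seeing the data, they were 79 for the guide at 0 h and 74 for TCR with the control guide. Shares of all genes called higher and lower are given for the main fit only. In the order above they were 34.2% and 29.1%, 30.7% and 30.8%, 40.9% and 40.9%, 40.8% and 44.5%, and 17.8% and 27.0%.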
